A study of Arabidopsis thaliana with 12 samples.

Results

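Photosynthetic carbon metabolism was followed through 4 genes, each the only gene annotated to its array probe: PRK (AT1G32060), SBPASE (AT3G55800), SPS4F (AT4G10120, listed as ATSPS4F) and PPDK (AT4G15530). They are 4 of the 690 single-gene probes found in the RefSeq gene table, among 3437 probes with values. The arrays measured total RNA of Arabidopsis thaliana, ecotype Columbia, in 6 samples titled WT and 6 titled stn7, a mutant of STN7, the thylakoid kinase needed for state transitions, in which antenna proteins move between both photosystems. The labels give no treatment, age, tissue, growth condition or mutant allele. Only stn7 sample 1 has a source name that says mutant: the other 5 with an stn7 title carry the wild-type source name, and the title was used for grouping.

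The Calvin cycle fixes CO2 with Rubisco and then rebuilds the CO2 acceptor, ribulose bisphosphate, from sugar phosphates. SBPASE, sedoheptulose bisphosphatase, acts in this rebuilding and draws carbon irreversibly back into it. PRK, phosphoribulokinase, makes ribulose bisphosphate in its last step. Both enzymes are switched on in the light by thioredoxins that receive electrons from photosystem I. Sucrose phosphate synthase, one form of which is encoded by SPS4F, makes the precursor of sucrose, the main sugar exported from leaves. PPDK, pyruvate orthophosphate dikinase, converts pyruvate to phosphoenolpyruvate. It is best known from the carbon-concentrating cycle of C4 plants, and Arabidopsis, a C3 plant, has it too.

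Values are relative intensities on a linear scale as deposited, with array medians between 0.297 and 0.414. Between 4.66% and 6.58% of the values of an array were exactly 0, but none of the values of the 4 genes was 0 or lay at the floor of 0.0702 set on dim values. For the comparison, intensities were quantile-normalized between arrays and put on the log2 scale. Within a group, samples with consecutive numbers (1 with 2, 3 with 4, 5 with 6) shared their deviations from the mean. This was weakest for stn7 samples 1 and 2 (r = 0.188), little above the 0.170 of stn7 sample 1 with a sample outside its pair. Each sample was averaged with its partner, giving 3 averaged replicates of WT and 3 of stn7, numbered 1 to 3. No label says that samples are separate plants or cultures, and the p-values cover the spread between these samples only. STN7 was on none of the annotated probes and did not check the labels. Of 3 photosynthesis marker genes with a probe of their own, PSBW lay between ranks 9 and 12 in brightness, LHB1B2 between 31 and 58, and PSAN between 50 and 133. The root, seed and senescence markers were on no single-gene probe, so other tissues were not checked for.

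None of the 4 genes passed an adjusted p of 0.05 for stn7 against WT, where 15.2% of the 3248 features tested did (limma, Benjamini-Hochberg over all features). SPS4F came closest, with a level 1.49-fold lower in stn7. PRK and PPDK were 1.23-fold and 1.21-fold lower in the mean, and SBPASE was 1.297-fold higher. The median difference of the 4 was -0.29 log2, against 0.05 log2 over all features, with 3 of the 4 and 1470 of the 3248 below 0. Their median absolute difference was 0.34 log2, against 0.32 log2 over all features. The RNA came from bulk samples, in which fewer cells of a type and less RNA per cell cannot be told apart. At an unadjusted p under 0.05 the limma fit held 1 of the 4, SPS4F, and 1051 of the 3248.

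**Figure D1:**
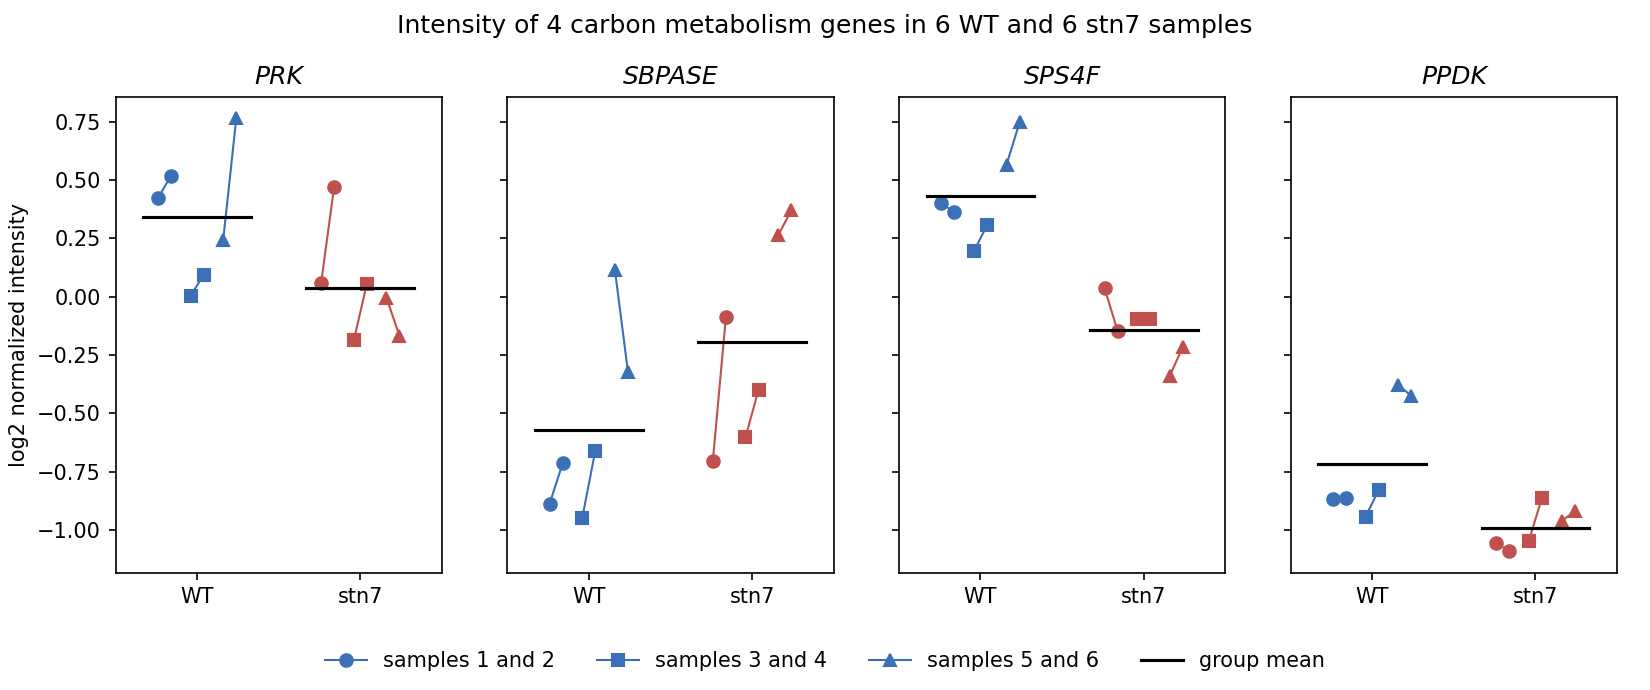
Log2 normalized intensity (vertical axis) of PRK, SBPASE, SPS4F and PPDK in 6 WT samples (blue) and 6 stn7 samples (red). Lines join the consecutive samples that were averaged, and black bars are group means. The groups do not overlap in SPS4F, and they overlap in the other 3 genes.

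SPS4F had deposited intensities of 1.33, 1.296, 1.20, 1.29, 1.46 and 1.66 in WT samples 1 to 6. In stn7 samples 1 to 6 they were 1.01, 0.893, 0.956, 0.962, 0.848 and 0.912. All 6 stn7 samples lay below all 6 WT samples, a separation found in 22% of all features in one direction or the other. After normalization the averaged WT replicates were at 0.38, 0.25 and 0.66 log2 (mean 0.43 ± 0.21, SD, n = 3), and the averaged stn7 replicates at -0.05, -0.09 and -0.28 log2 (mean -0.14 ± 0.12, SD, n = 3). The difference was -0.57 log2 (SE 0.16, 95% confidence interval -0.95 to -0.19), with an adjusted p of 0.0542 in limma. This just misses the threshold, and the interval runs from 0.517 to 0.876 of the WT level. Of all features 76.0% had a smaller absolute difference.

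Whether SPS4F passed depended on the setting. In 9 of 14 alternatives that kept all samples it passed, among them arrays centred on their median (-0.79 log2, adjusted p = 0.0398) and 12 samples with the pair as a random block (-0.57 log2, adjusted p = 0.0126). The pair block assumed 1 correlation (0.67) for all features and judged the spread from 12 samples rather than 3 averaged replicates per group. It called 671 features, against 494 as reported. Another of the 9 took all 12 samples as separate, which counts consecutive samples as independent though they shared deviations. With the deposited values SPS4F did not pass (-0.56 log2, limma, adjusted p = 0.0587). In 12 fits without 1 sample it passed in 2 and did not in 10 (limma, adjusted p from 0.0478 to 0.0728). The 2 were those without stn7 sample 1, the only one with a mutant source name (-0.60 log2, adjusted p = 0.0478), and without WT sample 3 (-0.59 log2, adjusted p = 0.0479). It did not pass in any of the 6 fits without 1 averaged replicate, where the difference lay between -0.66 and -0.46 log2. The difference was below 0 in all 33 alternatives run, which share the same samples. Those that changed only the spread model or the features kept could not move it from -0.57 log2. With sample 1 as the only stn7 sample the difference was -0.39 log2, a single sample with no spread of its own, so no test is given for it.

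PRK had deposited intensities of 1.35, 1.44, 1.04, 1.13, 1.13 and 1.67 in WT samples 1 to 6. In stn7 samples 1 to 6 they were 1.02, 1.37, 0.914, 1.05, 1.02 and 0.939. The groups overlapped: stn7 sample 2 lay above 4 of the 6 WT samples, and WT sample 3 was close to the middle of the stn7 samples. The log2 level was 0.34 ± 0.25 in WT and 0.04 ± 0.20 in stn7 (SD, n = 3 averaged replicates each). The difference was -0.30 log2 (SE 0.19, 95% confidence interval -0.74 to 0.13, limma, adjusted p = 0.302). The interval runs from 0.600 to 1.10 of the WT level, so a fall of up to 1.67-fold or a small rise lies within it. Consecutive samples, which were averaged, differed by up to 0.52 log2, more than the groups did.

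SBPASE had deposited intensities of 0.510, 0.570, 0.527, 0.639, 1.04 and 0.727 in WT samples 1 to 6. In stn7 samples 1 to 6 they were 0.617, 0.931, 0.708, 0.805, 1.21 and 1.31. Samples 5 and 6 were the brightest of their group in WT and in stn7, and 2 of the 6 stn7 samples lay above all WT samples. The averaged replicates were at -0.80, -0.80 and -0.10 log2 in WT and at -0.40, -0.50 and 0.32 log2 in stn7. In each group the replicate averaged from samples 5 and 6 lay highest. The difference was 0.38 log2 (SE 0.28, 95% confidence interval -0.28 to 1.03, limma, adjusted p = 0.402), so that both no change and a 2.05-fold rise lie within the interval. The pooled SD between averaged replicates was 0.42 log2, larger than in 85.1% of all features. Without stn7 replicate 3 the difference was 0.12 log2, and without WT replicate 3 it was 0.61 log2, neither past the threshold. Each of these fits dropped replicate 3, the highest, from 1 group only. With the replicate number as a block, which no label gives as the design, the SE was 0.13. The 95% confidence interval was then 0.05 to 0.70 log2, still without passing (limma, adjusted p = 0.109). With stn7 sample 1 as the only stn7 sample the difference turned to -0.13 log2, again with no test. That sample lay above WT samples 1, 2 and 3 and below WT samples 4, 5 and 6 after normalization.

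PPDK had deposited intensities of 0.514, 0.515, 0.529, 0.568, 0.693 and 0.677 in WT samples 1 to 6. In stn7 samples 1 to 6 they were 0.474, 0.468, 0.537, 0.596, 0.566 and 0.583. In these values the groups overlapped widely, and WT samples 5 and 6 stood above all other samples. After normalization the averaged WT replicates were at -0.86, -0.88 and -0.40 log2, and the averaged stn7 replicates at -1.07, -0.95 and -0.94 log2. The averaged replicates did not overlap, as in 38.7% of all features. The difference was -0.27 log2 (SE 0.18, 95% confidence interval -0.68 to 0.14, limma, adjusted p = 0.323). Without WT replicate 3, averaged from samples 5 and 6, it was -0.11 log2, and with the deposited values it was also -0.11 log2. The other 5 fits without 1 averaged replicate gave between -0.36 and -0.23 log2.

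The rank of each probe by brightness within its own array uses no scaling between arrays. Quantile normalization sets each value by this rank, so the ranks restate the normalized values and are no separate check. Probes differ in how strongly they hybridize, so a rank does not order transcripts by amount. SPS4F lay between ranks 302 and 462 of 3437 in WT (median 397.5) and between 530 and 733 in stn7 (median 606.5), again without overlap. PRK lay between 299 and 546 in WT (median 414) and between 370 and 640 in stn7 (median 536.5). SBPASE lay between 497 and 1206 in WT (median 985) and between 402 and 998 in stn7 (median 680), so its rank moved by more within a group than between the medians of the groups. PPDK lay between 757 and 1201 in WT (median 1113.5) and between 1128 and 1341 in stn7 (median 1259.5). Among the 690 single-gene probes, the median rank over the 12 samples was 77.5 for PRK, 146 for SBPASE, 77.5 for SPS4F and 205.5 for PPDK. The lowest place that any of the 4 took among these probes was 247, by PPDK in stn7 sample 1.

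**Figure D2:**
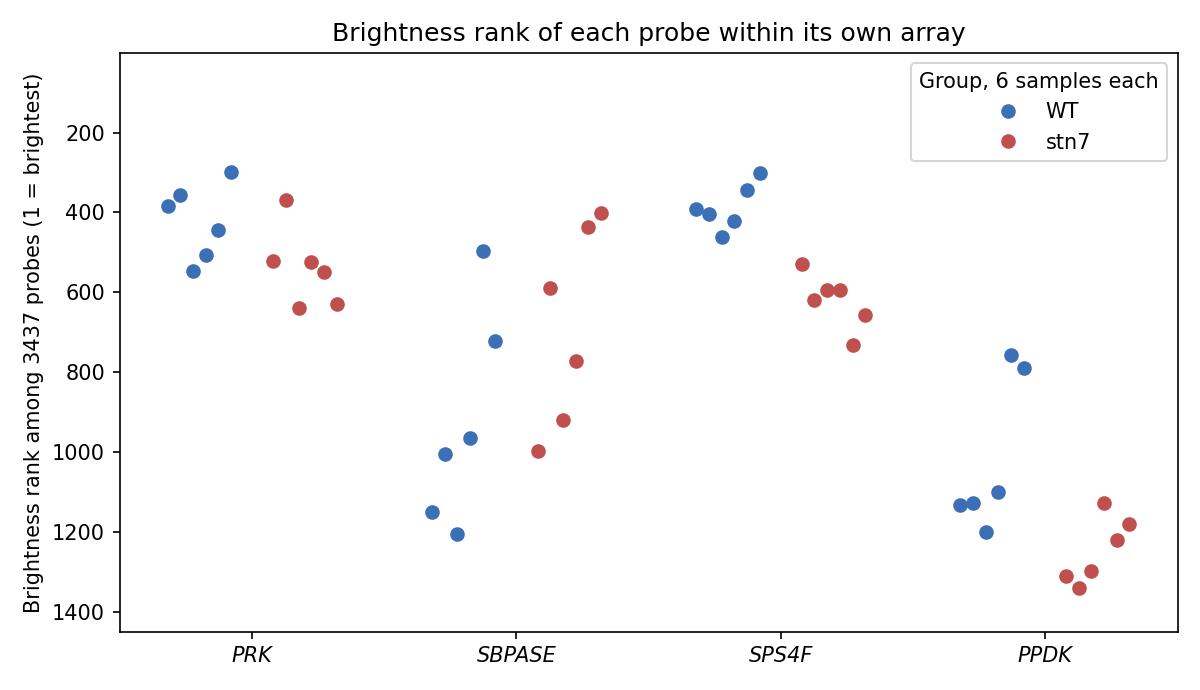
Brightness rank of each probe among the 3437 probes of its own array (vertical axis, rank 1 at the top), for 6 WT samples (blue) and 6 stn7 samples (red), in order of sample number within each group. The SPS4F ranks of WT end at 462 and those of stn7 begin at 530, while the other 3 genes overlap.

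A ratio of 2 genes within an array cancels any factor common to that array. The ratios were taken from the normalized values of the averaged replicates, where normalization had already removed such a factor. The log2 ratio of SBPASE to SPS4F lay between -1.18 and -0.76 in the WT replicates and between -0.41 and 0.59 in the stn7 replicates. It was 0.95 log2 higher in stn7, the widest shift among the 6 ratios. The shift of a ratio follows from the differences of its 2 genes given above, so only its spread between replicates is new. SBPASE over PPDK was 0.65 log2 higher and SPS4F over PPDK 0.30 log2 lower in stn7, and the replicates of these 3 ratios did not overlap. In a two-sided exact permutation test these 3 ratios reached p = 0.1, the smallest that 3 replicates against 3 allow, and p = 0.2 after Benjamini-Hochberg adjustment over the 6 ratios. PRK over SBPASE was 0.68 log2 lower and PRK over SPS4F 0.27 log2 higher in stn7, each at p = 0.2 in the exact test with overlapping replicates, and PRK over PPDK differed by -0.03 log2 (exact p = 0.6). No ratio therefore passed, and with 3 replicates against 3 none could.

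The features near PRK in the order of probe numbers differed in the same direction as PRK. The 12 nearest to it in that order had a median difference of -0.77 log2, and all 12 were below 0. Of the 12, 7 were called lower in stn7, where 8.68% of all features were. PRK, at -0.30 log2, lay above 9 of these 12. A little further before it 9 features were called higher, with differences up to 1.48 log2. When each sample was centred within sets of probe numbers that come back at a regular interval (set centring), the PRK difference became 0.15 log2 (limma, adjusted p = 0.667). Centred on its 12 nearest features it became 0.47 log2 (limma, adjusted p = 0.0997). The direction for PRK thus depended on the centring, and the part of probe position in its value was not tested.

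**Figure D3:**
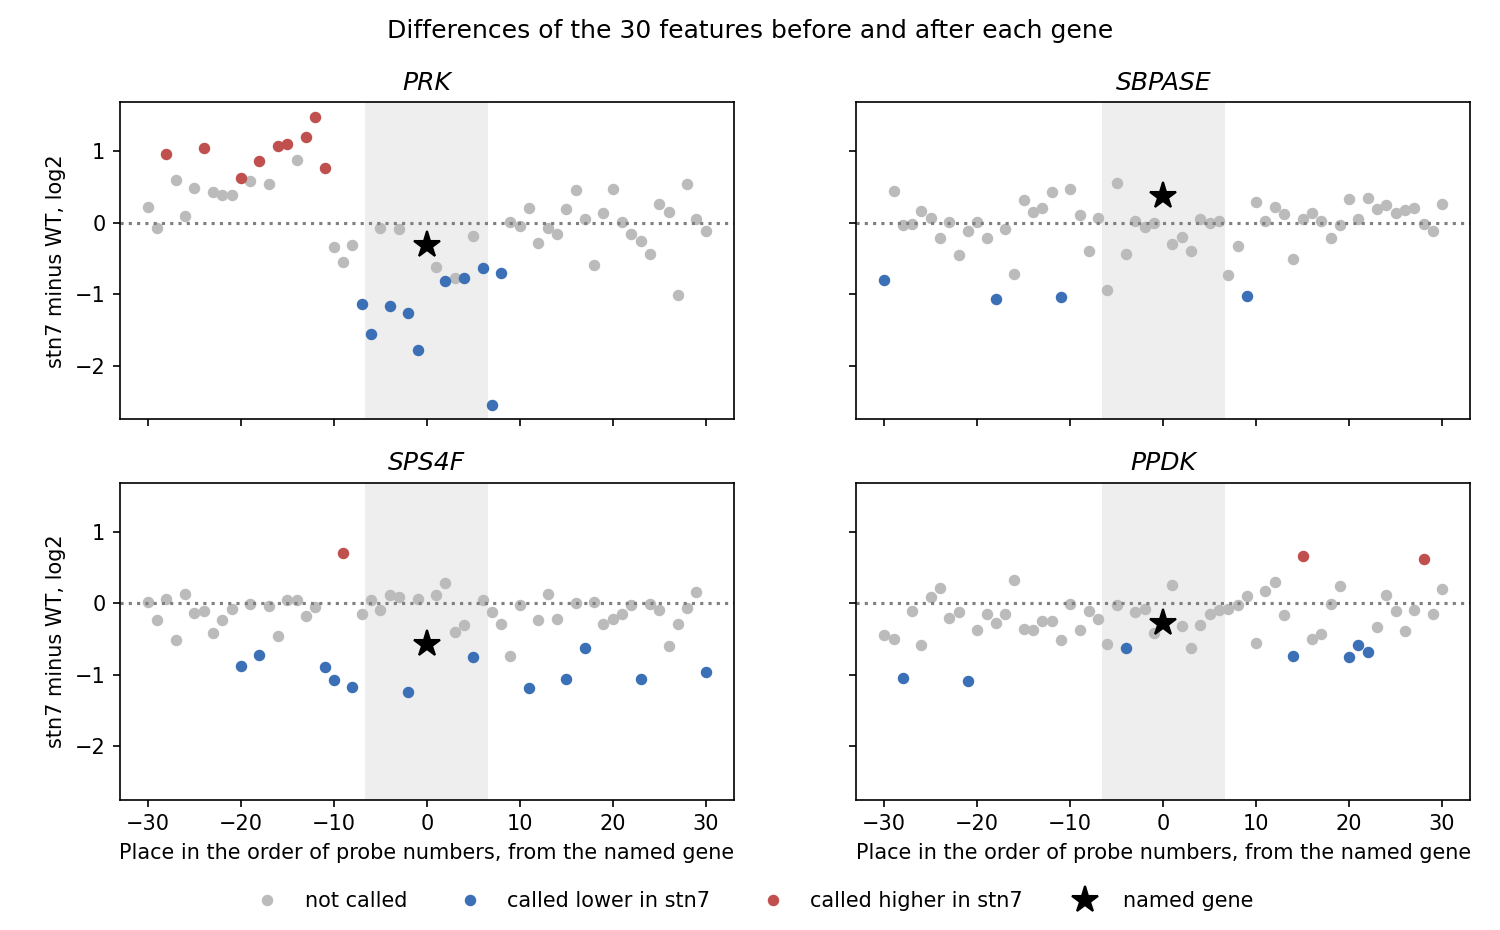
Stn7 minus WT difference in log2 (vertical axis) of the 30 features before and the 30 after each gene in the order of probe numbers (horizontal axis), with the gene as a star and the 12 nearest features on grey. Blue features were called lower and red ones higher in stn7; around PRK 9 were called higher and 10 lower in separate stretches.

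The 12 nearest features had median differences of -0.03 log2 around SBPASE, 0.05 log2 around SPS4F and -0.22 log2 around PPDK, with 7, 5 and 11 of the 12 below 0 and 0, 2 and 1 called lower. Among the 60 features drawn around each gene, 0 were called higher and 4 lower for SBPASE, 1 and 12 for SPS4F, and 2 and 7 for PPDK. Over all features 6.53% were called higher and 8.68% lower. SPS4F lay below 10 of its 12 neighbours, and centred on them its difference was -0.48 log2 and passed (limma, adjusted p = 0.0361). Centred within its set it was -0.39 log2 and did not pass (limma, adjusted p = 0.115). SBPASE lay above 11 of its 12 neighbours, with 0.49 log2 (limma, adjusted p = 0.0692) after centring on them and 0.54 log2 (limma, adjusted p = 0.192) after set centring. PPDK differed by 0.01 log2 after centring on its neighbours and by -0.11 log2 after set centring.

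**Figure D4:**
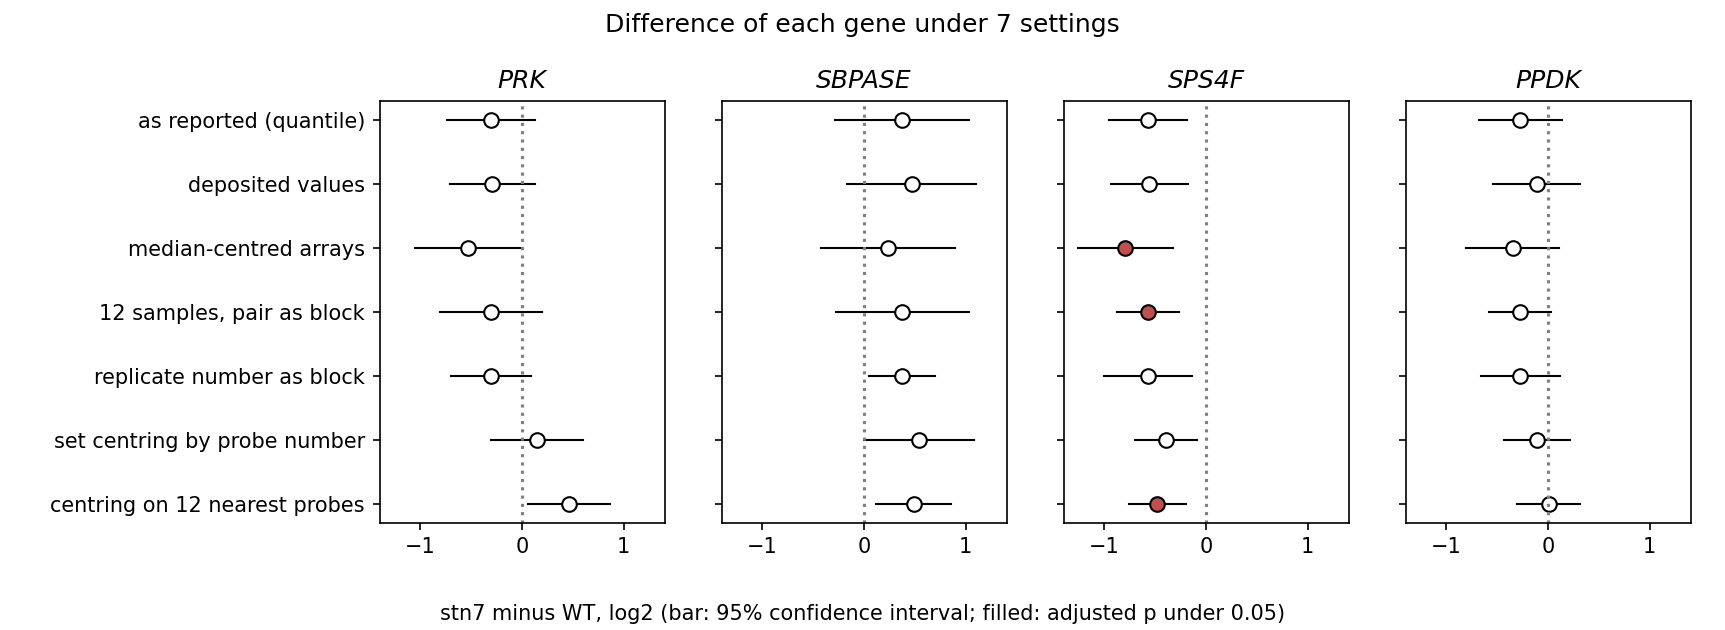
Stn7 minus WT difference in log2 (horizontal axis) of each gene under 7 settings, with its 95% confidence interval and filled points where the adjusted p was under 0.05. SPS4F stays below 0 in all 7 settings, between -0.79 and -0.39, and SBPASE above 0, while PRK runs from -0.53 to 0.47. The pair block and the replicate block can change only the interval, not the difference.

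Lists of 85 genes of the Calvin cycle, sucrose and starch synthesis, phosphoenolpyruvate and pyruvate metabolism, photorespiration and thioredoxin activation of enzymes held 6 genes with a probe of their own, among them the 4 described. None of the 6 passed as higher, where 6.53% of all features did, and 1 passed as lower, where 8.68% did. This background depends on the scaling: 212 features were called higher and 282 lower as reported, 289 and 179 in the deposited values, and 133 and 347 with median centring. Without further scaling the median difference of all features was 0.19 log2, and with median centring it was -0.03 log2, against which the differences under those scalings are to be read. Rubisco activase (RCA) is annotated only to probes shared with another gene and was not read. AT5G58330 encodes NADP-dependent malate dehydrogenase, which makes malate with reducing power from photosynthesis and is also under thioredoxin control. Its deposited intensity lay between 0.447 and 0.584 in WT (median 0.542) and between 0.579 and 0.696 in stn7 (median 0.674). Those groups met at their edges, but after normalization they overlapped and the difference was 0.10 log2 (SE 0.13, 95% confidence interval -0.21 to 0.42, limma, adjusted p = 0.644).

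AT2G04700, the 1 list gene outside the 4 that passed, stood in the thioredoxin activation list. Its deposited intensity lay between 0.807 and 0.928 in WT (median 0.888) and between 0.509 and 0.656 in stn7 (median 0.607), without overlap. The level fell 1.61-fold in stn7 (log2 difference -0.69, SE 0.15, n = 3 per group, limma, adjusted p = 0.0275). The other features of its probe-number set had a median difference of -0.30 log2. It did not pass with the deposited values (-0.55 log2), after set centring (-0.32 log2) or without any 1 averaged replicate (-0.75 to -0.59 log2), where fewer replicates were left. With sample 1 as the only stn7 sample its difference was -0.60 log2. Centred on its 12 nearest features its difference turned to 0.11 log2.

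The 4 genes varied differently among themselves over the 12 samples. SPS4F correlated with PPDK (Pearson r = 0.79) and with PRK (r = 0.68), whereas SBPASE correlated at -0.36 with SPS4F, -0.15 with PRK and 0.21 with PPDK. These values describe 12 samples that share averaged pairs and hold 2 groups, and they carry no test. Consecutive samples differed by a median of 0.04 log2 in PPDK and 0.12 log2 in SPS4F, against 0.20 log2 in PRK and 0.25 log2 in SBPASE. The widest such gap was 0.62 log2, in SBPASE between stn7 samples 1 and 2.

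Each gene was also compared with the other 558 single-gene features above the floor in all 12 samples. The matches named are the highest of 558 values over samples that share pairs and groups. They carry no test, and shared regulation was not tested. The pattern most like that of SPS4F was AT1G32520 (r = 0.96), followed by AT4G27510 and DI21, both at 0.94. SBPASE was most like NTRC, the plastid NADPH-dependent thioredoxin reductase C (r = 0.95), then AT1G62010 and AT2G32040, both at 0.90. PPDK was most like DRT101 (r = 0.94), AT2G31800 (0.91) and LPA19 (0.90). PRK had the loosest match, with AT4G04370 (0.77), AT2G35490 (0.76) and AT2G29870 (0.72), whose probe numbers lie close together (2345, 2349 and 2343). The probe of AT4G27510 belonged to the same probe-number set as that of SPS4F, and none of the other 11 shared a set with the gene it matched.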

How the data were processed

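One table of the series held a column of values for each of 12 samples, deposited as linear intensities that are never below 0. No source used here states the array type, background correction, scaling or probe layout. Probes were named through the platform annotation and RefSeq's TAIR10.1 gene table. Of 3437 probes with values 692 had 1 gene, 869 several and 1876 no entry.

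Arrays were quantile-normalized and values under the 10th percentile (0.0702) were raised to it. The 188 probes at that floor on every array were dropped, and probes of 1 locus were averaged, leaving 3248 features. Deviations from the group mean correlated at 0.188 to 0.632 between consecutive samples and at most 0.170 between any others, and consecutive samples were averaged on that ground. The comparison used limma 3.58.1 (lmFit, eBayes; R 4.3.3) with no replicate block. P-values were two-sided, with Benjamini-Hochberg adjustment over all features and a threshold of 0.05. The fit was tested on simulated data with independent noise for each feature, so without differences along probe numbers or deviations shared between features. Ratios of 2 genes were tested by exact permutation (scipy 1.17.1), and figures were drawn with matplotlib 3.10.9.

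Set centring subtracted, in each sample, the median deviation of the probe's set, 1 of 48 sets of 6 neighbouring numbers that come back at a regular interval. The genes, lists, averaging, floor and alternatives were chosen with earlier results of these data known. Named are the 4 genes, every list gene with a probe of its own and, for each of the 4, the 3 single-gene features most like it.

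The number of arrays limits the precision.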

Additional observations from a re-analysis of the deposited data

How the results depend on the processing

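SPS4F, which missed the threshold as reported, passed with arrays centred on their median (-0.79 log2), cyclic loess (-0.61), the higher floor, the dimmest 25% left out, 12 separate samples, the pair as a random block and a trended and robust variance model (each -0.57), an offset equal to the floor (-0.54) and centring on the 12 nearest probe numbers (-0.48). Of these, the fit on 12 separate samples counted consecutive samples as independent, though they shared deviations. With 1 sample or 1 averaged replicate left out SPS4F lay between -0.66 and -0.46. PRK turned to 0.15 log2 with set centring, with or without the replicate block, and to 0.47 with the 12 nearest, where PPDK turned to 0.0074, AT2G04700 to 0.11 and AT5G58330 to -0.10. SBPASE turned to -0.13 with only the mutant source name, a fit in which the lone stn7 sample is assumed to vary like WT. PRK, SBPASE and PPDK passed in none of their 33 alternatives. Of 494 features called as reported, counts were 1283 with 12 separate samples, 184 with set centring, 117 with set centring and the replicate block, 8 with only the mutant source name, and 4 (without stn7 replicate 1) to 493 with 1 sample or averaged replicate left out. The cause was not tested. Same-numbered averaged replicates of both groups correlated at 0.171, 0.120 and 0.0901 in their deviations, each best with its own number, which is a hint from the data and not the design. The replicate block gave 407 calls and changed no call of the 4 genes (limma, adjusted p = 0.225 for PRK, 0.109 for SBPASE, 0.0833 for SPS4F and 0.261 for PPDK). Signal over background is not known.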
